A study of Mus musculus with 11 samples.

Results

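The genes described here were those that the wild-type (WT) AML12 cells expressed and that both *Txndc5*-edited lines, the knockout (KO) and the knock-in (KI), had at or near 0. An annotated gene entered the group when it had at most 15 counts in each of the 4 KO and 4 KI libraries and at least 100 counts in each of the 3 WT libraries, with the counts of table entries of the same name summed. Of 21889 annotated genes, 9819 had at least 100 counts in each WT library and 5 met both limits. *Slc28a3* was 1 of the 5 and was set aside because its name belongs to the solute carrier family, as were all names with any of 11 family prefixes. The 4 genes that remained were *Clmn*, *Adgrl2*, *Rgs16* and *Sgce*, each with 1 entry in the table. They were selected on the KO, KI and WT counts, so their differences from the WT cells are given as a description without a test.

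AML12 is a line of mouse hepatocytes established from a mouse with a transforming growth factor alpha transgene, and it was used to study TXNDC5, a protein disulfide isomerase of the endoplasmic reticulum. Polyadenylated RNA was sequenced in 11 libraries, the 4 KO, 3 WT and 4 KI libraries, which are numbered 5 to 8 except that a single WT library carries the number 5-6. The KO cells were made by transfection with a CRISPR/Cas9 plasmid against *Txndc5* and a repair template with a puromycin resistance gene, followed by puromycin selection, and the labels call their genotype a knockdown. For the KI cells, the labels and the design text give overexpression of TXNDC5 from the ROSA26 locus and no selection step or number of clones, and the WT cells are not described as transfected or selected. The change in *Txndc5*, the transfection, the selection and the descent of a line from few cells therefore cannot be told apart as sources of a difference shared by both lines. Nothing in the labels says that the libraries of a line came from separate cultures, so the spread and the p-values given below measure the differences between these libraries, which may be technical. In these bulk libraries, fewer cells of a type and less RNA per cell cannot be told apart either.

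The 4 genes encode proteins of different kinds, and no single pathway holds them all. *Adgrl2* encodes latrophilin 2, an adhesion G protein-coupled receptor whose extracellular part binds teneurins and FLRT proteins on neighbouring cells. *Rgs16* encodes a regulator of G protein signalling, a cytoplasmic protein that speeds the hydrolysis of GTP by alpha subunits of the Gi and Gq classes and so shortens their signal; in the liver its level follows feeding and fasting. *Clmn* encodes calmin, a membrane protein with calponin homology domains, which bind actin. *Sgce* encodes epsilon-sarcoglycan, a membrane protein of the sarcoglycan complex that is bound to dystrophin or utrophin, and it is an imprinted gene of which the paternal copy is expressed. The annotations deposited with the table gave the membrane as a location of *Clmn*, *Adgrl2* and *Sgce* and the cytoplasm for *Rgs16*.

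The 4 genes were low in the same libraries by selection. The promoter windows of those with an entry in the RefSeq promoter table are given as a description. The windows run from 250 bases before to 50 bases after the gene start on the assembly GRCm38.p6, are written 5′ to 3′ on the strand of the gene, and have each CG dinucleotide in capitals. *Clmn* lies on the minus strand (chr12:104865027-104865326), *Rgs16* on the plus strand (chr1:153740103-153740402) and *Adgrl2* on the minus strand (chr3:148954586-148954885). *Sgce* was not in the promoter table.
Clmn: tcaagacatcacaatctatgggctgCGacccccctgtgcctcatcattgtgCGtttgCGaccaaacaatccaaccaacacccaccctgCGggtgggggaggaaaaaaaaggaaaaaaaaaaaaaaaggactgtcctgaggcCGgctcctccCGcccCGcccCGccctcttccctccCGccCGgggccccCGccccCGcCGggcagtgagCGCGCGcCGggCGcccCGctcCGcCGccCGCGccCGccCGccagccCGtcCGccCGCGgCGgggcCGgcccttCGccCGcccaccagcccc
Rgs16: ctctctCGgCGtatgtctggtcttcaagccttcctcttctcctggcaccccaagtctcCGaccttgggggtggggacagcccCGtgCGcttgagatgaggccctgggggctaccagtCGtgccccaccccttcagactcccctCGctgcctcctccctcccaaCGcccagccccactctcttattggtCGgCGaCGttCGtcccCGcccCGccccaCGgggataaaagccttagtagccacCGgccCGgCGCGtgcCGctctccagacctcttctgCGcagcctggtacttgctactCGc
Adgrl2: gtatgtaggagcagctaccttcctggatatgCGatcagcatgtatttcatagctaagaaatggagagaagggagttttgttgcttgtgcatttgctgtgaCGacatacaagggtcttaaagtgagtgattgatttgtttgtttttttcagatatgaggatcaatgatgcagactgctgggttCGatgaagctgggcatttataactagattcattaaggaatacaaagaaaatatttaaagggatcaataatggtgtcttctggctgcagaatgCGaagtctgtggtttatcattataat

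The 3 windows differed in CG content. The *Clmn* window held 33 CG dinucleotides, with a GC content of 71.0% and an observed-to-expected CG ratio of 0.935. For *Rgs16*, these values were 22, 66.0% and 0.719. *Adgrl2* had 4 CG dinucleotides, a GC content of 38% and a ratio of 0.421. Among the 9866 windows of genes tested in KO against WT, whose median was 21 CG dinucleotides, *Clmn* stood at percentile 84.2, *Rgs16* at 53.1 and *Adgrl2* at 6.3. The 3 windows thus covered most of the range of the tested genes, from a CG-poor to a CG-rich one. The table gives 1 start per gene, and GENCODE lists 20 transcripts of *Adgrl2*, 7 of *Clmn* and 1 of *Rgs16*, so the start used in AML12 cells may lie elsewhere.

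**Figure D1:**
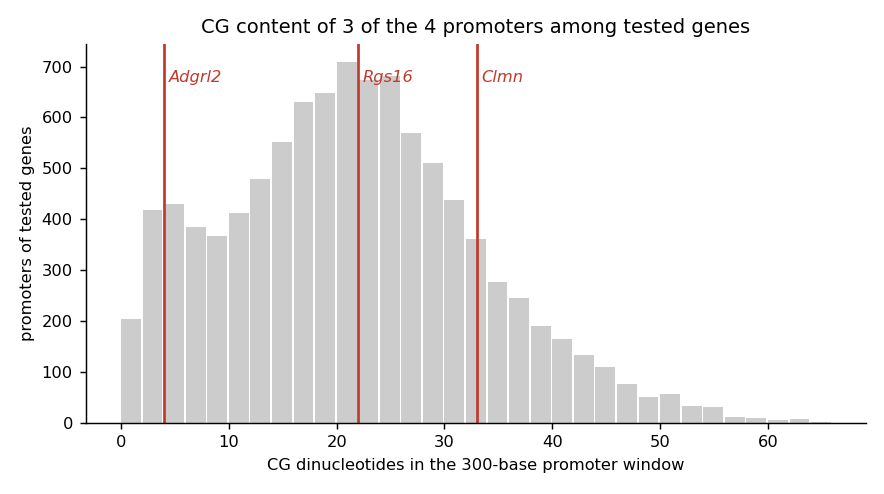
Number of CG dinucleotides (x axis) in the 300-base promoter windows of tested genes (grey bars, number of windows on the y axis), with vertical lines at the windows of *Adgrl2*, *Rgs16* and *Clmn*. The lines stand at 4, 22 and 33 CG dinucleotides, against a median of 21.

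On either strand, the windows were searched for 5 short motifs: the TATA box, the GC box, the CACGTG form of the E-box of basic helix-loop-helix factors, the AP-1 motif and the TEAD motif. GGGCGG, the core of a GC box, occurred 9 times in the *Clmn* window and 2 times in the *Rgs16* window, and 63.9% of the windows of tested genes and 35.7% of all 32851 windows hold it. TATAAA, the TATA box, occurred 1 time in the *Adgrl2* window, and 7.28% of the tested windows and 13.6% of all windows hold it. None of the 3 held CACGTG, which 10.2% of the tested and 7.15% of all windows hold, and other forms of the E-box were not searched for. The AP-1 motif TGANTCA (5.05% and 7.81%) and the TEAD motif GGAATG (12.0% and 14.7%) were not in them either. No motif of the 5 was therefore present in all 3 windows. These matches describe letters in the windows and not binding sites.

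*Clmn* was the gene with the most counts among the 4. It had 373 counts in WT 5-6, 538 in WT 7 and 885 in WT 8. In the KO line all 4 libraries had 0 counts, and in the KI line the libraries 5 to 8 had 0, 0, 6 and 2. The 3 WT libraries were all high and the 8 edited ones all at or near 0, with no overlap, as the limits required. In CPM, counts scaled to a common library size by the TMM method, the WT level was 23.2 ± 7.47 (SD, n = 3) and the KI level 0.0544 ± 0.074 (SD, n = 4). The WT level was at least 280-fold higher than in the KO cells, with each library at 0 set to a floor of 3 counts. Against the KI cells, the ratio of summed counts per library size was 426, with an exact 95% interval of 216 to 988. This interval and those below cover counting error only. In the WT cells *Clmn* also varied most among the 4 genes, with a highest level 1.88 times the lowest, against a median of 1.48 over all tested genes.

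*Adgrl2* had 191 counts in WT 5-6, 155 in WT 7 and 311 in WT 8. It had 0 counts in each KO library, and 9, 9, 10 and 0 counts in KI 5 to KI 8. The receptor gene was therefore undetected in the KO line at this depth and present in 3 of 4 KI libraries at a low and similar level. The WT level was 8.59 ± 2.38 CPM (SD, n = 3) and the KI level 0.19 ± 0.127 CPM (SD, n = 4). The WT level was at least 104-fold higher than in the KO cells, and the ratio to the KI cells was 44.5, with an interval of 30.5 to 67.5.

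*Rgs16* had 124 counts in WT 5-6, 193 in WT 7 and 205 in WT 8, 0, 12, 0 and 8 counts in KO 5 to KO 8, and 14, 10, 2 and 12 counts in KI 5 to KI 8. It was the only gene of the 4 with any count in the KO line, in 2 of its 4 libraries. Its KO and KI values overlapped. Both lay far below the WT values, as the limits required. The WT level was 6.86 ± 1.18 CPM (SD, n = 3), the KO level 0.135 ± 0.171 and the KI level 0.271 ± 0.154 (SD, n = 4 each). The ratio of WT to KO was 50.6 (32.4 to 83.5) and that of WT to KI 26.1 (18.7 to 37.3), the smallest ratios of the group.

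*Sgce*, the lowest of the 4 genes in the WT cells, had 117 counts in WT 5-6, 141 in WT 7 and 107 in WT 8. All 4 KO libraries had 0 counts, and the KI libraries 5 to 8 had 10, 0, 0 and 6. Its residual counts thus came from the 2 KI libraries 5 and 8. The WT level was 4.9 ± 0.989 CPM (SD, n = 3) and the KI level 0.116 ± 0.139 CPM (SD, n = 4). The WT level was at least 59.0-fold higher than in the KO cells, and the ratio to the KI cells was 43.3, with an interval of 26.3 to 76.5.

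**Figure D2:**
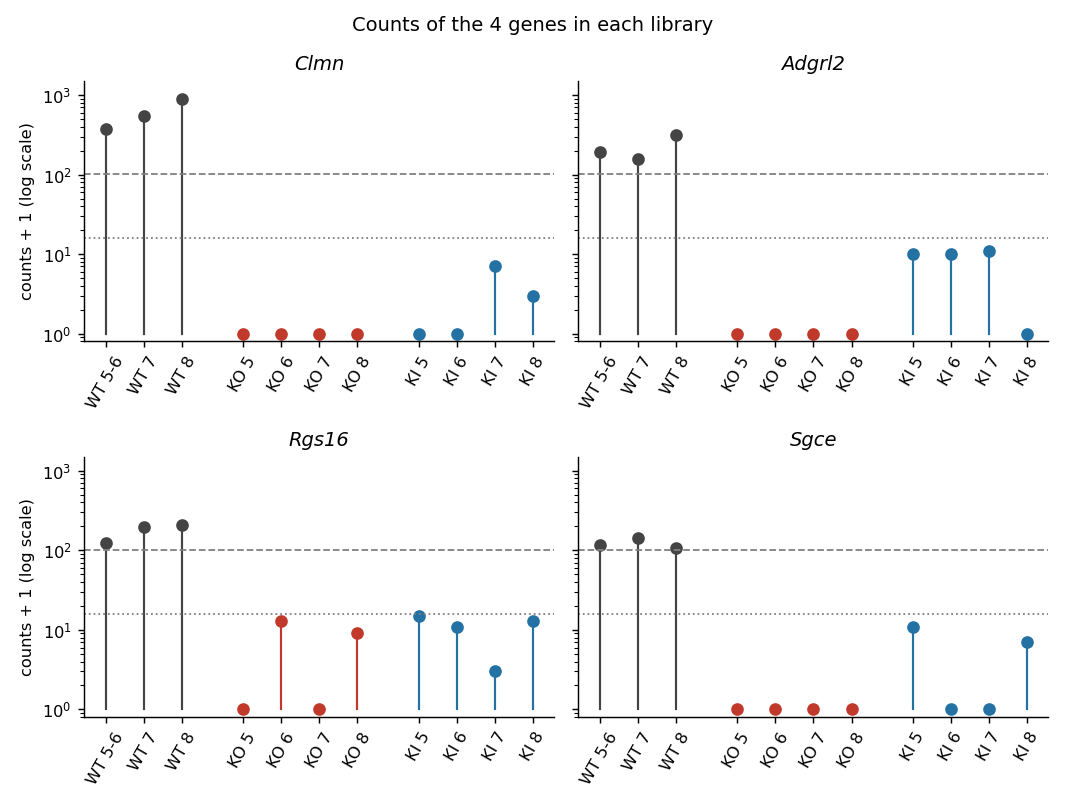
Counts plus 1 (y axis, log scale) of *Clmn*, *Adgrl2*, *Rgs16* and *Sgce* in each of the 11 libraries (x axis), with the WT libraries in grey, KO in red and KI in blue. The dashed line marks the lower limit for WT libraries (100 counts) and the dotted line the upper limit for edited libraries (15 counts), and a point at the bottom is a library with 0 counts. The WT points lie between 107 and 885 counts and the edited ones between 0 and 14.

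Together the 4 genes had 805, 1027 and 1508 counts in WT 5-6, WT 7 and WT 8. The 4 KO libraries had sums of 0, 12, 0 and 8, and the KI libraries 33, 19, 18 and 20. Of the 16 values in the KO line 14 were 0, and of the 16 in the KI line 5 were 0. The 13 values above 0 in the edited lines included 11 even numbers, and among all entries 56.63% of the values from 1 to 15 were even, where 46.67% of those integers are. Whether both reads of a fragment were counted is not given in the sources used here, and if they were, the intervals above are too narrow.

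In edgeR's fitted values, which add a prior count and so are no bounds for a gene at 0, the log2 fold changes in KO against WT were −8.54 for *Clmn* (standard error, SE, 0.37), −7.11 for *Adgrl2* (SE 0.38), −6.31 for *Sgce* (SE 0.41) and −5.14 for *Rgs16* (SE 0.62). In KI against WT they were −7.61 for *Clmn* (SE 0.42), −5.07 for *Adgrl2* (SE 0.45), −4.81 for *Sgce* (SE 0.62) and −4.38 for *Rgs16* (SE 0.40). The order of the 4 genes was the same in each list, but *Adgrl2* and *Sgce* in KI against WT differed by less than their errors. Both comparisons use the same 3 WT libraries. All 4 genes passed the filter on low counts in both comparisons, as their choice required, and all 4 counted as lower. Over all genes tested, 28.4% were called lower in KO against WT and 21% in KI against WT, at a Benjamini-Hochberg adjusted p under 0.05 in the quasi-likelihood test of edgeR. Since the limits fixed the direction of the 4 genes, nothing is read from this count.

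The levels of different genes were compared per kilobase of exon, with the union of all GENCODE exons of a gene as its length. In the WT cells, *Rgs16* had 2.93 ± 0.505 CPM per kb, *Clmn* 1.87 ± 0.602, *Adgrl2* 0.605 ± 0.168 and *Sgce* 0.461 ± 0.0932 (SD, n = 3 each). *Rgs16* and *Clmn* overlapped, with 2.36, 3.33 and 3.1 against 1.34, 1.75 and 2.52 CPM per kb in WT 5-6, WT 7 and WT 8, and so did *Adgrl2*, with 0.6, 0.44 and 0.775, and *Sgce*, with 0.491, 0.536 and 0.357. The first pair did not overlap with the second. With the longest transcript as the length, the mean levels were 2.93, 1.96, 1.42 and 1.11 CPM per kb in the same order, and *Clmn* and *Adgrl2* then overlapped. Among the tested genes with a known length, *Rgs16* stood at percentile 37.0, *Clmn* at 27.6, *Adgrl2* at 12.5 and *Sgce* at 10.2 of the WT level per kb. Per kb, all 4 were thus below the middle of the genes tested in KO against WT. By CPM without the length, *Clmn* stood at percentile 52.7, *Adgrl2* at 31.5, *Rgs16* at 27.8 and *Sgce* at 23.5. WT 8 was the highest library for *Clmn* and *Adgrl2*, and WT 7 for *Rgs16* and *Sgce* in CPM (7.78 and 5.69), so the 4 genes did not share an order over the WT libraries.

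The residual levels in the edited lines rest on few counts, since the limits allowed at most 15 in each library of both lines. *Adgrl2* had 28 counts in the KI line against 0 in the KO line, and *Rgs16* 38 against 20. *Sgce* had 16 and *Clmn* 8 in the KI line, against 0 in the KO line for each. The KI sum was thus the higher one for all 4 genes, but not for *Slc28a3*, set aside by name, with 11 counts in KO and 10 in KI. In edgeR's fit of the KO and KI libraries, none of the 4 genes had enough counts to pass the filter, so no p-value of that fit is given. In a two-sided exact permutation test of the CPM values, *Adgrl2* had p = 0.143, *Rgs16* 0.257, and *Clmn* and *Sgce* 0.429 each, without adjustment for the 4 tests. The smallest p of this test is 0.0286 where no libraries tie across the lines. In *Adgrl2*, *Clmn* and *Sgce*, KO and KI libraries tied at 0 made the p obtained the smallest possible. The test could therefore not detect a difference in these genes. For *Rgs16* the test did not detect a difference between the KO and KI lines. The limits had bounded its counts in both lines, so no likeness of the lines is read from this. Without the filter, edgeR's log2 fold changes of KO against KI were −2.15 for *Adgrl2* (adjusted p = 0.0269) and −1.62 for *Sgce* (0.0671). For *Clmn* and *Rgs16* they were −0.99 (0.136) and −0.77 (0.541). All 11 libraries in 1 fit gave −2.07 (0.00251), −1.53 (0.0245), −0.94 (0.0621) and −0.75 (0.327) in the same order. There the genes passed the filter through their WT counts, so nothing is read from these p-values.

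The limits passed close to other genes. Of the 9819 genes with at least 100 counts in each WT library, 56 had at most 15 counts in each KO library and 14 in each KI library. The 5 genes in both lists, *Slc28a3* included, were 8.93% of the first list and 35.71% of the second. The opposite pattern, at most 15 counts in each WT library and at least 100 in each edited one, was met by 25 genes in the KO line, 3 in the KI line and 0 in both. None of 262 newly assembled entries with at least 100 counts in each WT library met the limits.

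Just outside the upper limit stood 5 genes. *Pdzrn3* had 18 counts in its highest edited library and *Eif5a2* 19, each in the KI line, and their lowest WT libraries had 140 and 251. The liver enzyme gene *Mat1a*, for methionine adenosyltransferase, reached 22 counts in KI 7 and 17 in KO 7, *Lrrc9* 22 in KI 5, and *Scara3* 24 in KI 6. In all 5 the highest edited library was thus a KI library, though *Mat1a* had a sum of 57 counts in KO and 25 in KI. Of the 5, 1 gene, *Scara3*, had 0 counts in each KO library. On the inner side, *Rgs16* was nearest to this limit with its 14 counts in KI 5.

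At the lower limit for WT libraries, *Sgce* was the nearest gene inside, with 107 counts in WT 8. Outside were *Car8*, with 88 counts in its lowest WT library, *Cacna1h* with 74, *Hunk* with 72, *Tspan6* with 67 and *Pcp4l1* with 61. Each of these 5 genes had 15 counts or fewer in each edited library. *Slc28a3*, which encodes a nucleoside transporter and was set aside by name, had 153, 108 and 275 counts in WT 5-6, WT 7 and WT 8, 0, 5, 6 and 0 in KO 5 to KO 8, and 10, 0, 0 and 0 in KI 5 to KI 8. The group of 4 thus has no sharp edge: with a limit of 50 counts for the WT libraries it had 10 genes, with 30 counts for the edited libraries 11, and with 5 counts for the edited libraries 0.

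**Figure D3:**
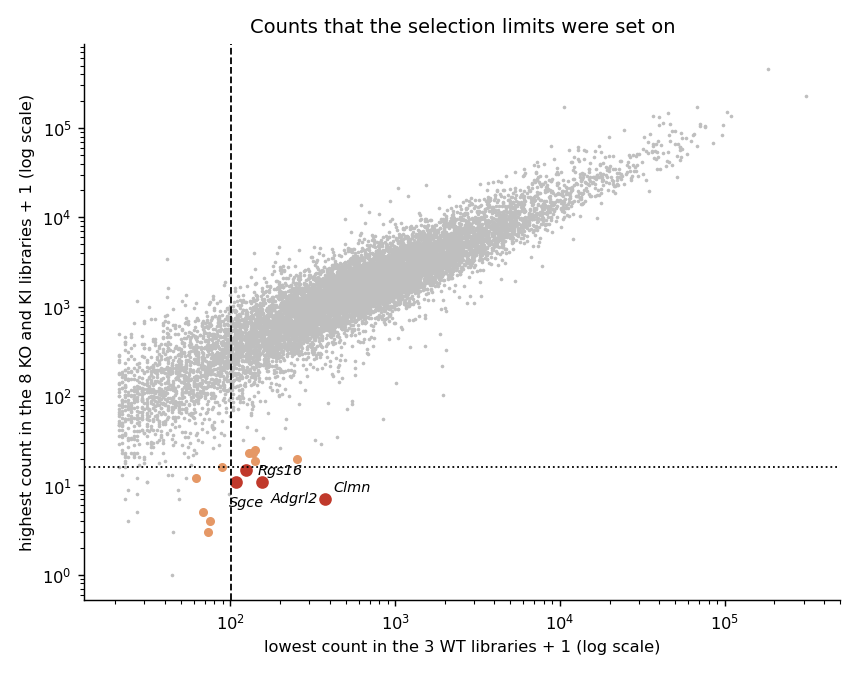
Lowest count plus 1 in the 3 WT libraries (x axis, log scale) and highest count plus 1 in the 8 edited libraries (y axis, log scale) of each annotated gene with at least 20 counts in every WT library (grey). The 4 genes are red and named, the 10 nearest genes outside a limit are orange, and the lines mark the limits of 100 and 15 counts. *Clmn* stands apart at 373 and 6 counts, and *Rgs16* at 124 and 14 lies just under the upper limit.

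Each gene lay on a different chromosome, *Rgs16* on chromosome 1, *Adgrl2* on 3, *Sgce* on 6 and *Clmn* on 12, and the table genes within 1 Mb of them were taken from the RefSeq gene order on GRCm38.p6. *Adgrl2* had no other table gene in that window. Around the other 3 lay 71 genes, of which 30 were tested in KO against WT. There 14 were lower and 3 higher, while 28.4% of all tested genes were lower and 26.7% higher. The median log2 fold change was −0.35 against −0.03 over all genes. In KI against WT 33 were tested, with 12 lower (21% of all), 6 higher (21.2% of all) and a median of −0.42 against −0.02. Of the lower genes, 8 in KO and 5 in KI were serpin A genes near *Clmn*.

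Neither gene next to *Clmn* was lower in an edited line. *Dicer1*, which encodes the nuclease that matures microRNAs and is its nearest neighbour on one side, had log2 fold changes of −0.05 in KO and 0.06 in KI against WT, and neither passed the threshold. *Syne3*, for a nuclear envelope protein on the other side, was higher in both lines, by 0.85 and 1.14 in edgeR's test, and its KO call was lost without KO 6 (0.71), KO 8 (0.76) or WT 7 (0.65). Beyond *Dicer1* lies the serpin A cluster, of which 18 genes were in the window. All 8 of these that were tested in KO against WT were lower, and in KI against WT 5 of 10 were lower and 1 was higher. Serpin A genes are close copies of each other, so their reads could have been divided among them in counting. Without them, 6 of the 17 other genes of the window were tested in each line, with 1 lower and 1 higher in KO and 0 lower and 3 higher in KI. *Dicer1*, the one tested gene between *Clmn* and the serpin A genes, was thus not called in either line.

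*Rgs8*, another regulator of G protein signalling, flanks *Rgs16* on one side and was too low to test. In the window of *Rgs16*, 10 genes were tested in each line, with 5 lower and 2 higher in KO and 4 lower and 1 higher in KI.

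*Sgce* and *Peg10*, a retrotransposon-derived gene, are neighbours in an imprinted region and start next to each other on opposite strands. *Peg10* had 0 counts in all 11 libraries, the WT libraries included, in which *Sgce* had 107 to 141 counts. On the other side, *Casd1*, for a sialic acid acetyltransferase, had a log2 fold change of 0.17 in KO, which did not pass, and was higher by 0.47 in KI, a call that was lost without WT 7 (0.52), WT 8 (0.28) or any 1 KI library (0.44 to 0.50). Of the tested genes around *Sgce*, 0 of 6 were called in KO, and 3 were lower and 1 higher of 7 in KI.

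**Figure D4:**
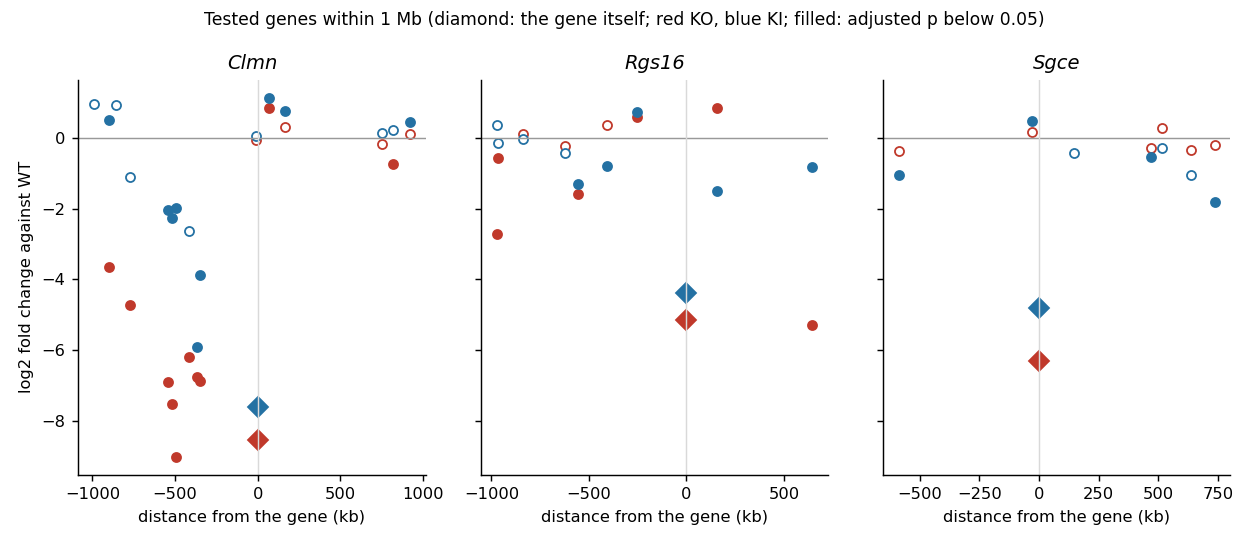
Log2 fold change against WT (y axis) of the tested genes within 1 Mb of *Clmn*, *Rgs16* and *Sgce*, by distance from the gene in kb (x axis, negative towards the start of the chromosome), with KO in red and KI in blue. 1 tested gene is not drawn. Diamonds are the 3 genes themselves, filled circles have an adjusted p below 0.05 and open circles do not. *Clmn*, at −8.54 and −7.61, lies beyond genes near 0, and the low group to its left is the serpin A cluster.

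The relatives of 3 of the genes were read from 4 lists, drawn up by family once the 4 genes were known. For comparison, 28.4% of all tested genes were lower and 26.7% higher in KO, and 21% and 21.2% in KI. Of the 20 regulators of G protein signalling other than *Rgs16*, 6 were tested in each line, with 2 lower and 0 higher in KO and 3 lower and 2 higher in KI, and medians of −0.11 and −0.96 on the log2 scale. In KO the lower ones were *Rgs3* (−1.61) and *Rgs11* (−3.38). In KI *Rgs2* (−1.45), *Rgs11* (−1.19) and *Rgs19* (−1.01) were lower, and *Rgs12* (1.15) and *Rgs20* (0.80) were higher. The call of *Rgs3* was lost without WT 5-6 (−1.03), that of *Rgs11* in KI without WT 7, WT 8, KI 6 or KI 8 (−1.20 to −0.95), and that of *Rgs20* without WT 5-6, WT 7 or any 1 KI library (0.58 to 0.87). Among those too low to test, *Rgs17* had 9, 14 and 12 counts in WT 5-6, WT 7 and WT 8, 0 in each KO library and 2, 4, 0 and 0 in KI 5 to KI 8, so it was also lowest in the edited lines. *Rgs2*, with 963 to 1409 counts in the WT libraries, was the most abundant of those named here, and it kept 582 to 658 counts in the KI libraries. Among 12 tested G protein alpha subunits, 4 were lower and 3 higher in KO, and 0 lower and 1 higher in KI. This list also holds subunits outside the Gi and Gq classes on which RGS16 acts, such as *Gnas* and *Gna12*. *Gnai1*, for a Gi alpha subunit, was higher in KO by 1.62. *Gnao1*, for the Go alpha subunit, had 86, 85 and 226 counts in WT 5-6, WT 7 and WT 8 and 0, 0, 0 and 2 in KO 5 to KO 8. It was higher in KI by 1.54, with 408 to 677 counts, so unlike *Rgs16* it was near 0 in the KO line and abundant in the KI line.

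The 2 other latrophilin genes were expressed in all libraries of both edited lines. *Adgrl1* had 95 to 204 counts in the WT libraries, 148 to 253 in the KO and 536 to 730 in the KI libraries, with a log2 fold change of 0.00 in KO that did not pass and a rise of 1.65 in KI. *Adgrl3* was lower in KO, as *Adgrl2* was, by −2.06 and had 0.31 in KI, which did not pass. Of the 10 latrophilins and ligands other than *Adgrl2*, 7 were tested in KO, with 2 lower and 2 higher, and 6 in KI, with 1 lower and 2 higher. The ligand genes called in KO were *Tenm4*, which encodes a teneurin and had 0 to 17 counts in the WT libraries and 1520 to 3098 in the KO libraries (log2 fold change 6.93), *Flrt2* (2.83) and *Flrt3* (−1.10). In KI *Flrt2* was higher (1.46) and *Flrt1* lower (−2.07), a call that was lost without WT 5-6 (−2.15), WT 8 (−1.58) or KI 8 (−1.99). The ligand genes thus went both ways in both lines.

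*Sgce* was the only sarcoglycan gene that reached 20 counts in any library. Of the 16 other genes of the sarcoglycans and the dystrophin complex, 8 were tested in each line, with 1 lower and 3 higher in KO and 1 lower and 0 higher in KI. The gene lower in KO was *Dtna*, for alpha-dystrobrevin, with 88, 134 and 98 counts in the WT libraries and 0, 0, 0 and 3 in the KO libraries (log2 fold change −5.73). Among the 3 higher in KO were the genes of sarcospan (*Sspn*, 1.02) and of beta-2-syntrophin (*Sntb2*, 0.66), and *Dmd*, for dystrophin, was lower in KI (−0.54). The call of *Sntb2* was lost without KO 6, KO 8, WT 5-6 or WT 7 (0.52 to 0.72). The medians of the list were 0.06 in KO and 0.10 in KI.

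**Figure D5:**
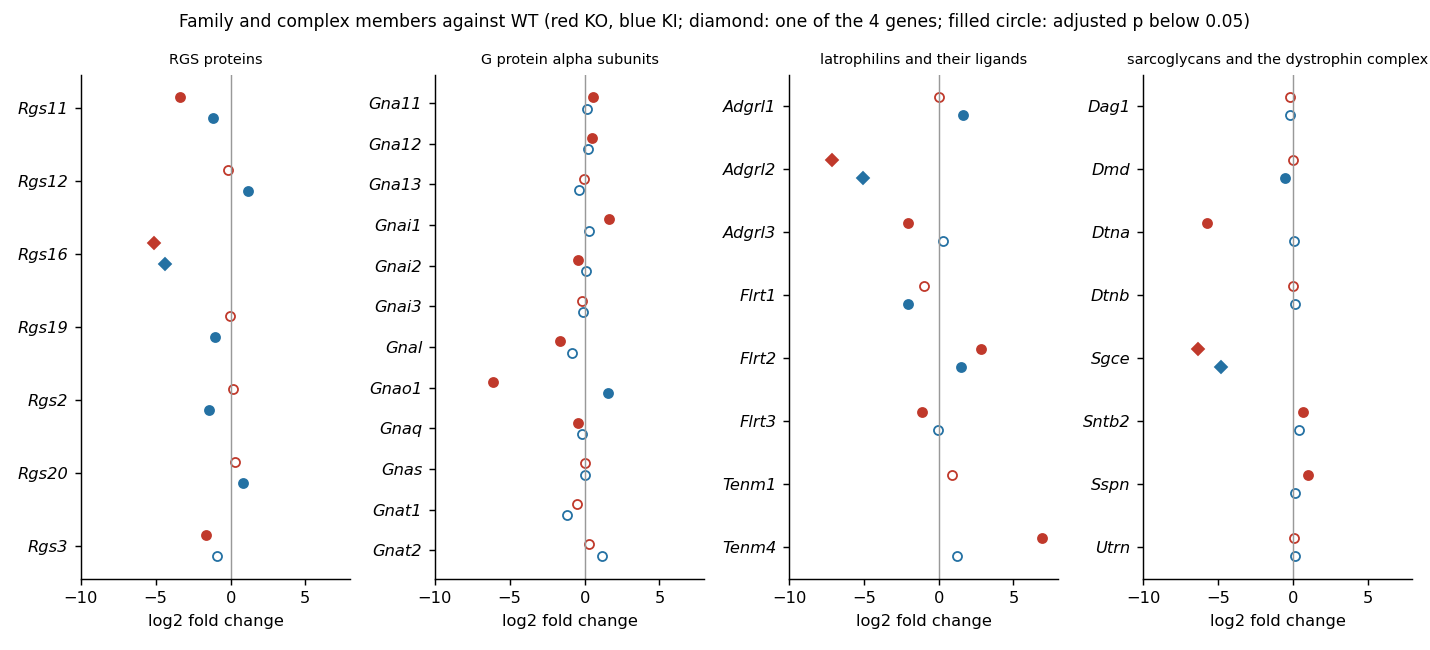
Log2 fold change against WT (x axis) of the tested genes of 4 lists, KO in red and KI in blue, with 1 row per gene and 1 tested gene not drawn. Diamonds are *Rgs16*, *Adgrl2* and *Sgce*, filled circles have an adjusted p below 0.05 and open circles do not. The 3 genes were selected on these comparisons, so the place of their diamonds is no result, and the relatives lie on both sides of 0.

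The libraries had between 29840366 and 38422243 counts in all. For *Txndc5*, which both lines were edited for, KO 5 to KO 8 gave 364, 287, 430 and 408 counts, WT 5-6, WT 7 and WT 8 gave 3299, 3429 and 4046, and KI 5 to KI 8 gave 5654, 6511, 6723 and 5344. It was lower in KO (log2 fold change −3.81, SE 0.15, adjusted p = 4.09e-08 in edgeR), whereas the KI libraries, at 169.0 ± 10.2 CPM (SD, n = 4) against 143.0 ± 4.37 (SD, n = 3) in WT, did not pass the threshold (0.24, SE 0.12, adjusted p = 0.136), except with library totals in place of the TMM factors (0.57, adjusted p = 0.00623). Beside the marker counts that follow, 26.7% of all tested genes were higher and 28.4% lower in KO, and 21.2% and 21% in KI. The hepatocyte markers summed to 7050 to 8370 CPM in KO, 4970 to 7160 in WT and 3350 to 4160 in KI, and of 18 tested 11 were higher and 5 lower in KO, and of 16 tested 2 were higher and 6 lower in KI. Without *Alb*, for albumin, at 4110 ± 524 CPM in KO (SD, n = 4) and 513 ± 198 in WT (SD, n = 3), the sums were 3230 to 3710 in KO, 4550 to 6790 in WT and 3190 to 3860 in KI. *Trf* was the largest part of these, at means of 1350, 2970 and 1410 CPM in KO, WT and KI. It had 119139 counts in WT 8, against 53568 in WT 5-6 and 57475 in WT 7. The cholangiocyte markers summed to 1860 to 2000 CPM in KO, 3540 to 4750 in WT and 3130 to 3550 in KI, with 5 of 8 lower and 2 higher in KO and 1 of 8 lower and 0 higher in KI. *Spp1*, at means of 246, 2520 and 1960 CPM in KO, WT and KI, made up most of the WT and KI sums. *Krt19*, the largest part in KO, was higher there, at means of 1100, 770 and 747 CPM. The macrophage and leukocyte markers summed to 377 to 465, 482 to 669 and 376 to 424 CPM in KO, WT and KI, with 3 of 4 lower in KO and 2 of 5 in KI. *Cd14*, at means of 412, 556 and 383 CPM, made up most of these sums. For the fibroblast markers the sums were 1170 to 1280, 693 to 898 and 694 to 802 CPM. Most of them was *Vim*, at means of 1220, 771 and 745 CPM. Of 3 tested fibroblast markers 1 was lower and 1 higher in KO, and 0 were lower and 1 higher in KI. Of the endothelial markers 2 could be tested, with 1 lower in each line and sums of 1.4 to 2.22 CPM in KO, 34.3 to 46.7 in WT and 20.4 to 28.3 in KI, while *Tek* was at 0 in all libraries and *Pecam1* and *Cdh5* had at most 8 counts. *Flt1*, at means of 38.4 CPM in WT and 22.4 in KI, made up most of the WT and KI sums. The neural markers summed to 23.9 to 33.9, 26.9 to 34.5 and 34.6 to 45.1 CPM in KO, WT and KI. In KO 2 of 3 tested were lower and 1 higher, and in KI 1 of 4 was lower and 2 higher. *Map2* among them had log2 fold changes of −6.83 in KO and −2.83 in KI against WT, and *Ncam1* had 0.61 and 1.03. The part of such shifts in the values of the 4 genes was not tested. The TMM factors were 0.744 to 0.947 in WT and 1.02 to 1.13 in the edited libraries. When library totals replaced TMM, all genes had a median log2 fold change of 0.38 in KO and 0.30 in KI, and the share of calls that were higher went from 48.5% to 72.8% in KO and from 50.2% to 76.3% in KI.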

How the data were processed

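Polyadenylated RNA of AML12 cells was sequenced in 4 KO, 3 WT and 4 KI libraries. The authors deposited raw counts per gene, made by their sequencing provider. The labels name HISAT2, TopHat2, Bowtie2 and StringTie without role or version, and the genome build and the counting tool are not given in the sources used here. Of 26472 lines of the table, 26462 were used and 10 with broken fields were left out. Counts were summed by gene name, giving 24849 genes. The deposited FPKM columns, whose decimal points are missing, and the columns of the authors' own DESeq2 comparisons (fold changes and adjusted p-values) were not used.

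Depth was 29840366 to 38422243 counts per library, at which the floor of 3 counts covers counting error only. The function filterByExpr removed genes with few counts, TMM gave the scaling, and genes were tested by the quasi-likelihood method of edgeR (robust, prior count 2), with Benjamini-Hochberg adjustment over all genes tested and a threshold of 0.05. Each comparison used the libraries of its own groups. R 4.3.3, edgeR 4.0.16, DESeq2 1.42.0, limma 3.58.1 and Python 3.11.15 were used, and the edgeR step was tested on simulated data. Intervals of ratios are exact (Clopper-Pearson, 95%). Lengths are from GENCODE on GRCm38 and were found for 89.6% of the tested genes and all 4 genes described.

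The 4 genes and all lists were chosen with earlier results of these data known. The rule named all members, the 5 nearest genes outside each limit and *Txndc5*. The relatives and flanking genes named fall outside it and were chosen after the members were known; the relatives were listed by family and not by how they moved. Alternatives were DESeq2, its size factors, library totals, no filter, a replicate block, all 11 libraries in 1 fit, other limits and leaving out each library. Results of 2 genes are not reported here.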

Additional observations from a re-analysis of the deposited data

Results flagged for a closer look

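Among the 53 sets of 4 libraries examined, KO and KI values in CPM of the genes named, 3 had a single library far from the other 3, where chance gives about 2.65 (1 in 20 sets). *Adgrl2* in KI 8 was one: it had 0 CPM against 0.248 to 0.261 in the other KI libraries, a gap of 0.949 of the whole range. The other sets were of KO 8, with 2 counts of *Gnao1* and 3 counts of *Dtna* (0.046 and 0.069 CPM) where the other KO libraries had 0, so that the gap was 1.0 of the range. The 2 sets with KO 8 rest on counts at or under the floor of 3.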

How the results depend on the processing

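The number of genes in the group followed the limits: 0 with at most 5 counts in the edited libraries, 11 with at most 30, 10 with at least 50 counts in the WT libraries and 1, *Clmn*, with the strictest limit for the WT libraries. It was 5 with no name left out, 4 per table entry, 6 with limits on CPM, and 4 to 5 on leaving out single libraries, and all 4 genes were kept in these. Their log2 fold changes against WT kept their sign and their side of the threshold in all 13 alternatives of each comparison, as the limits require. In *Adgrl2*, *Clmn* and *Sgce*, which are at 0 in KO, the size rests on the prior count: the values of KO against WT reached −10.77, −12.2 and −9.96 in DESeq2. The numbers did not pair the libraries, with correlations of deviations between −0.383 and 0.503. With the replicate block the calls went from 7364 to 6163 in KO against WT, from 5722 to 1338 in KI against WT and from 7171 to 6453 in KO against KI. Leaving out each library gave 6161 to 8449, 4276 to 6969 and 6515 to 7230 calls. Of 442 values of the 24 other genes tested, 43 lost and 3 gained a call, 10 of these with the block. Another 12 turned sign, all of differences that were not called. *Dicer1* in KO against WT was 0.35 with library totals, and went from −0.15 to 0.1 without single libraries. *Dicer1* in KI against WT was −0.11 with the block and went from −0.06 to 0.19 without single libraries. *Adgrl1* in KO against WT was 0.38 with library totals, 0.01 with no filter and with all 11 libraries, and −0.19 to 0.28 without single libraries. Depth limits what can be said of the KO line: 0 counts allow up to 3.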
